A study of Danio rerio with 6 samples.

Results

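Contractile genes of smooth muscle and myofibroblasts were followed in the injured zebrafish heart through 6 of the 32520 genes in the count table. The genes acta2, lmod1b, fhl1b and ENSDARG00000010478 were chosen by Ensembl identifier, and mylka and mylkb by their zebrafish symbols in the supplementary gene table of the study. The choice was made with the genotype difference already known, so the values of the 6 genes between genotypes are given as a description and no test of them is reported. ENSDARG00000010478 had been listed as myh11a, but both annotation sources used here name it hsp90aa1.1, a chaperone gene. It was kept by its identifier and is called hsp90aa1.1 below, and the genes that carry the name MYH11 are described with the other contractile genes.

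RNA was sequenced from ventricular apexes of adult zebrafish of the AB background at 7 days post-cryoinjury (dpci), an injury made by freezing part of the ventricle. The mdka-KO group (mdka cn105) carries a CRISPR/Cas9 frameshift allele in the third exon of mdka, which codes for the secreted factor Midkine-a. The mdka+/+ group is wild type for mdka and came from crosses of the same fish. Each group had 3 libraries, and each library was made from 1 pool of 3 apexes (replicates 2, 3 and 4 for mdka-KO, 1, 2 and 4 for mdka+/+). Only 1 mutant allele was sequenced, it is present in every cell of the fish, and the tissue was the whole apex without cell sorting. A difference in a transcript can therefore come from a different number of cells of a type or from a different amount of RNA per cell, which cannot be told apart in these libraries.

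Smooth muscle shortens when a calcium-activated kinase, myosin light chain kinase, phosphorylates the regulatory light chain of myosin II and lets it pull on actin filaments. Smooth muscle α-actin (acta2), smooth muscle myosin heavy chain (MYH11), transgelin, calponin, caldesmon and the actin filament nucleator leiomodin-1 are the usual markers of the contractile state. Fibroblasts that gain α-actin fibres in a wound are called myofibroblasts, and in the heart the same transcripts also come from coronary mural cells and from the smooth muscle of the outflow tract.

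Library totals lay between 18940128 and 25195457 expected counts. Levels are given as CPM, a gene's counts relative to a library size that was corrected by TMM, the trimmed mean of M-values in edgeR, and a log2 fold change is mdka-KO over mdka+/+ with its standard error (SE) from edgeR's fit. The mdka transcript itself stood at 81.8, 132 and 139 CPM in mdka-KO libraries, against 429, 731 and 1070 CPM in mdka+/+ libraries (log2 fold change −2.66 ± 0.36, adjusted p = 0.0944 by the edgeR quasi-likelihood fit, Benjamini-Hochberg over all genes). The tissue check gave the cardiac myosin light chain gene MYL7 at 9121 to 11528 CPM in mdka-KO libraries and 11853 to 15298 CPM in mdka+/+ libraries.

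All 6 genes passed the filter on low counts. The levels of 4 of them, lmod1b, fhl1b, mylka and mylkb, were higher in every mdka-KO library than in every mdka+/+ library, and those of acta2 and hsp90aa1.1 overlapped between the genotypes. Groups that did not overlap made up 8.75% of the 17879 genes tested with mdka-KO higher and 8.97% with mdka-KO lower, and nothing is read from this share because the 6 genes were chosen on the same contrast.

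The gene acta2 (ENSDARG00000045180) had 302, 249 and 218 CPM in mdka-KO libraries, against 195, 251 and 227 CPM in mdka+/+ libraries. The groups overlapped, with mdka-KO replicate 4 below both mdka+/+ replicate 2 and replicate 4. The means were 256 ± 42.7 CPM in mdka-KO and 225 ± 28 CPM in mdka+/+ hearts (SD, n = 3 each). This was a log2 fold change of 0.19 ± 0.16. The most widely used marker of the contractile state thus differed by about as much as its own standard error. Its counts were not all whole numbers. RSEM splits a read between the transcripts it matches, which makes the level an estimate, and which genes share its reads was not tested. Its GRCz11 coordinates were not used here.

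The gene lmod1b (ENSDARG00000077261, GRCz11 chromosome 11, 24889170 to 24894907, plus strand) encodes a leiomodin-1, which nucleates actin filaments and is typical of smooth muscle in mammals. It had 21.7, 19.8 and 20.5 CPM in mdka-KO libraries, against 9.81, 10.6 and 10.5 CPM in mdka+/+ libraries. The lowest mdka-KO library was 1.87 times the highest mdka+/+ library, and within each genotype the libraries were close to each other (coefficient of variation 4.64% in mdka-KO and 4.26% in mdka+/+). The means of 20.7 ± 0.959 CPM in mdka-KO and 10.3 ± 0.439 CPM in mdka+/+ hearts correspond to a log2 fold change of 1.0 ± 0.12.

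The gene fhl1b (ENSDARG00000056653, chromosome 10, 26597990 to 26621189, plus strand) encodes an FHL protein, one of a family of muscle scaffold proteins built of LIM domains. Its levels were 80.5, 81 and 75.9 CPM in mdka-KO libraries and 44.2, 41.1 and 45.1 CPM in mdka+/+ libraries. The groups were apart, with the lowest mdka-KO library at 1.68 times the highest mdka+/+ library. The log2 fold change was 0.86 ± 0.10, from means of 79.1 ± 2.84 CPM in mdka-KO and 43.5 ± 2.09 CPM in mdka+/+ hearts.

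The genes mylka (ENSDARG00000034801, chromosome 9, 4024250 to 4075620, minus strand) and mylkb (ENSDARG00000004753, chromosome 6, 13458257 to 13498745, minus strand) both encode the myosin light chain kinase named MYLK in human. For mylka the levels were 91.4, 74.6 and 57.9 CPM in mdka-KO libraries, against 43.8, 30.9 and 35.8 CPM in mdka+/+ libraries. The groups did not overlap, but the mdka-KO libraries differed among themselves by 1.58 times. The means of 74.6 ± 16.8 CPM in mdka-KO and 36.8 ± 6.5 CPM in mdka+/+ gave a log2 fold change of 1.02 ± 0.20.

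For mylkb the levels were 8.26, 6.41 and 2.89 CPM in mdka-KO libraries and 1.95, 1.87 and 0.632 CPM in mdka+/+ libraries. These rested on 212, 138 and 58 counts in mdka-KO and on 42, 36 and 12 counts in mdka+/+ libraries, the smallest numbers among the 6 genes. The groups were apart, and the spread within each was wide, with the highest library at 2.86 times the lowest in mdka-KO and at 3.09 times in mdka+/+. The log2 fold change of 1.97 ± 0.50 was the highest of the 6 and also had the widest error.

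The gene hsp90aa1.1 (ENSDARG00000010478, chromosome 20, 53982317 to 54012043, minus strand) encodes an Hsp90α chaperone that is needed in zebrafish striated muscle for the folding of myosin. It had 293, 176 and 173 CPM in mdka-KO libraries, against 265, 514 and 354 CPM in mdka+/+ libraries. The groups overlapped because mdka-KO replicate 2 lay above mdka+/+ replicate 1. The means were 214 ± 68.3 CPM in mdka-KO and 378 ± 126 CPM in mdka+/+ hearts. At −0.82 ± 0.29 it had the only negative log2 fold change among the 6. Its counts were not all whole numbers either.

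**Figure D1:**
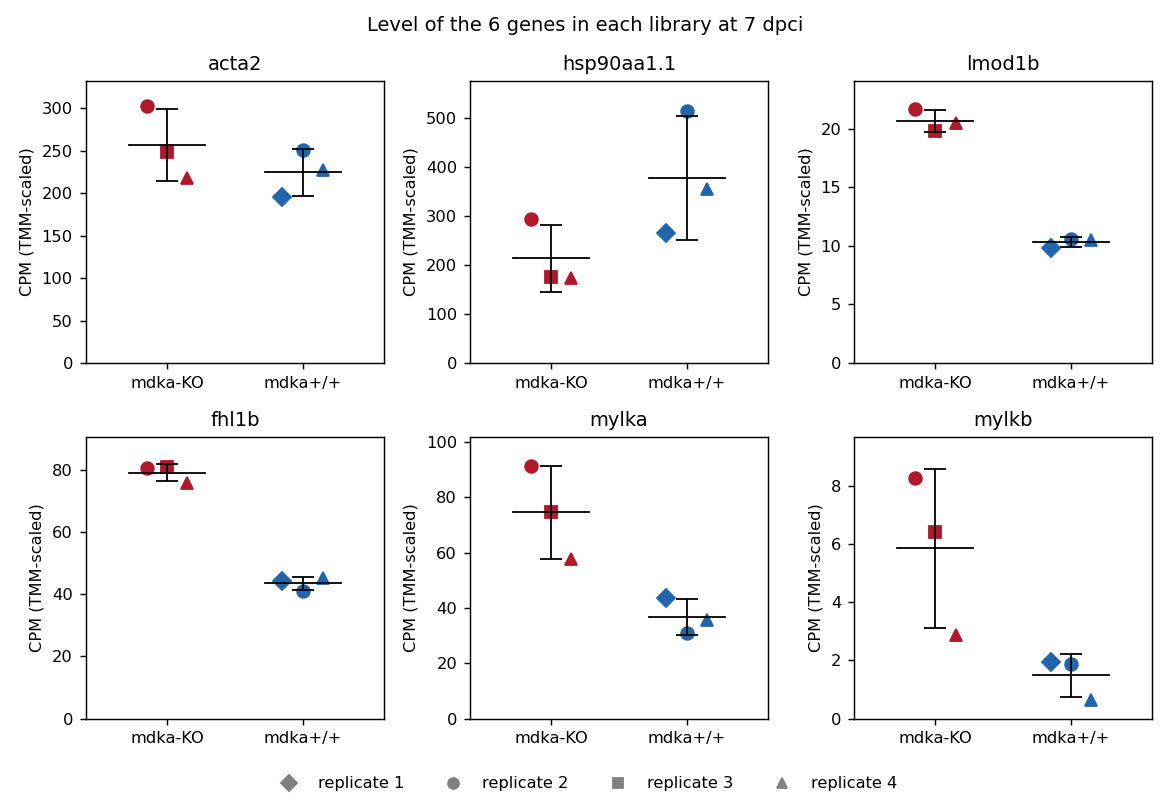
Level of each of the 6 genes (CPM, y axis from 0) in the 3 mdka-KO (red) and 3 mdka+/+ (blue) libraries, with marker shapes for replicate numbers, bars for the mean and whiskers for the SD. The points are apart for lmod1b, fhl1b, mylka and mylkb and overlap for acta2 and hsp90aa1.1, and mylkb spans 2.89 to 8.26 CPM within mdka-KO.

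The 6 genes also differed in how they varied among libraries of 1 genotype. Expressed as the log2 deviation from the genotype mean, lmod1b and fhl1b stayed between −0.08 and 0.07 in all 6 libraries. For mylka the deviations were 0.32, 0.02 and −0.34 in mdka-KO and 0.26, −0.24 and −0.02 in mdka+/+ libraries, and for mylkb they were 0.62, 0.26 and −0.88 in mdka-KO and 0.54, 0.48 and −1.02 in mdka+/+ libraries. Both kinase genes were thus highest in mdka-KO replicate 2 and in mdka+/+ replicate 1. The smooth muscle myosin gene MYH11 (ENSDARG00000009782) was highest in the same libraries, with deviations of 0.33, 0.08 and −0.41 in mdka-KO and 0.50, −0.08 and −0.42 in mdka+/+.

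The gene acta2 followed another order, with deviations of 0.25, −0.03 and −0.22 in mdka-KO and −0.19, 0.17 and 0.02 in mdka+/+ libraries. The order was shared by hsp90aa1.1 (0.50, −0.23 and −0.26 in mdka-KO, −0.46, 0.50 and −0.04 in mdka+/+). In both, replicate 2 was the highest library of each genotype and mdka+/+ replicate 1 the lowest wild-type library. Of 8 fast skeletal muscle markers, 6 were also highest in replicate 2 of both genotypes. The share of all genes that were highest in these 2 libraries was not counted, so nothing is read from the 6. The creatine kinase gene ckma was lowest in replicate 2 of both genotypes (1277, 1819 and 1724 CPM in mdka-KO, 2789, 2451 and 2799 CPM in mdka+/+ libraries). Another marker, 1 TNNT3 gene (ENSDARG00000030270), was highest in mdka-KO replicate 3. The parvalbumin gene pvalb2 had 53.3, 9.94 and 3.84 CPM in mdka-KO libraries and 1.49, 19.1 and 1.84 CPM in mdka+/+ libraries, and the fast myosin gene myhz2 had 95.6, 14.3 and 6.13 CPM in mdka-KO and 6.6, 20.9 and 5.96 CPM in mdka+/+ libraries. Without both libraries numbered 2, an alternative chosen after seeing the data, the log2 fold change was 0.14 for acta2, −0.83 for hsp90aa1.1, 0.99 for lmod1b, 0.81 for fhl1b, 0.73 for mylka and 1.83 for mylkb.

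**Figure D2:**
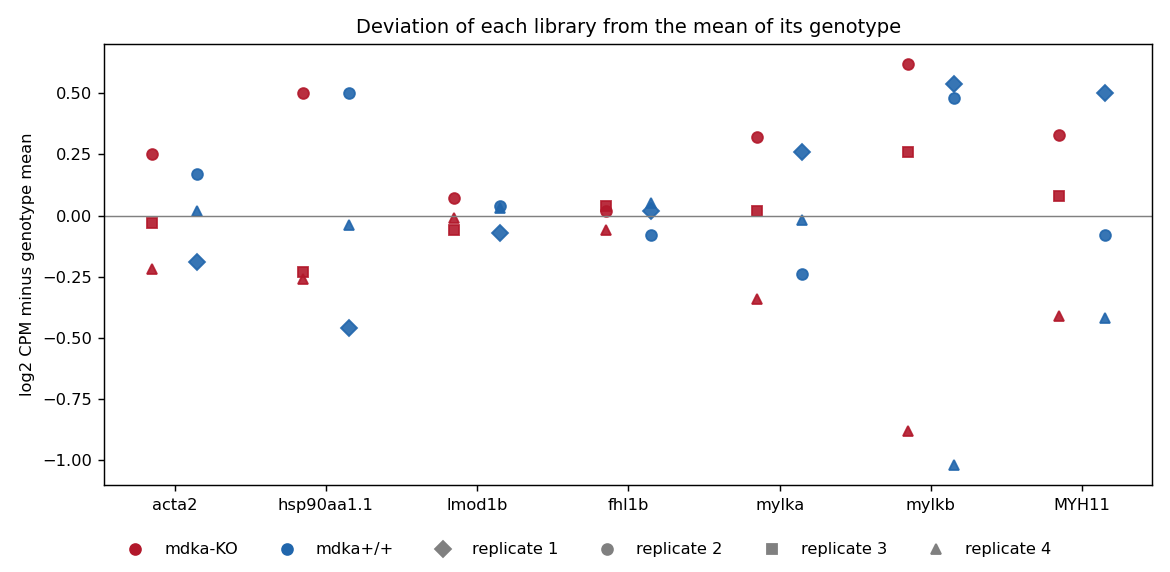
Log2 CPM of each library minus the mean of its genotype (y axis) for the 6 genes and for MYH11, with mdka-KO libraries in red to the left of mdka+/+ libraries in blue and marker shapes for replicate numbers. The points of lmod1b and fhl1b lie within 0.08 of 0, while those of mylkb reach −0.88 in mdka-KO and −1.02 in mdka+/+ for replicate 4.

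The genes whose log2 levels were most like those of each of the 6 were sought among the 8745 or 8746 other genes with an average of at least 10 CPM, by Pearson's r over the 6 libraries. The 6 points include the genotype difference, and between 45 and 206 genes had an r above 0.9 with each of the 6, so the names are only a description. For lmod1b they were srsf9 (a splicing factor) and s100u (a calcium-binding protein), both with r = 0.998, and abcc12 (a transporter) with r = 0.996. For fhl1b they were tram2 (r = 0.999), which takes part in collagen synthesis in mammals, olfml3a (0.990) and srsf9 (0.987). For mylka they were twist1b (r = 0.990), a transcription factor of mesenchymal cells, mgat1b (0.988) and si:dkey-19e4.5 (0.987). The twist1b levels were 38.2, 33.5 and 25.9 CPM in mdka-KO libraries and 17.5, 12.6 and 12.8 CPM in mdka+/+ libraries. For mylkb they were the RNA editing gene adarb1a (r = 0.992), znf521 (0.987) and IKBKE (0.986), for acta2 PAPOLG (0.989), zfx (0.986) and NAA10 (0.980), and for hsp90aa1.1 MSRB3 (0.991), tsen15 (0.987) and HACE1 (0.982). No other gene of the contractile apparatus was among these names.

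The remaining contractile apparatus was read from a list of 26 further genes, of which 22 were tested. With edgeR's quasi-likelihood test at an unadjusted p under 0.05, the threshold form used by the study, 8 of the 22 (36.4%) were higher in mdka-KO hearts and 2 (9.09%) were lower, and 12 did not pass. Over all 17879 genes tested, 5.64% were higher and 6.42% lower by the same rule. Symbols of this and the other lists were sought first among genes that the study called, and unmatched ones were left out. The list shares can therefore lean toward called genes. Here cnn2, cald1a, lmod1a, myl9b, myl6 and csrp1a were matched in that way, and all of them passed the unadjusted threshold. The median log2 fold change of the 22 genes was 0.40, against −0.01 over all genes. After Benjamini-Hochberg adjustment over all genes none of the 22 had an adjusted p under 0.05 in edgeR (lowest 0.128), nor in limma-voom. DESeq2 tested 25 genes of the list and gave 4, but it gave no adjusted p for lmod1a and smtna. Over all genes DESeq2 gave 414. The share this makes of the genes it adjusted was not counted, so nothing is read from the 4. Over all genes 0.00559% had an adjusted p under 0.05 in edgeR.

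Among the genes that were higher, cald1a, which encodes the actin-binding protein caldesmon, had 147, 143 and 156 CPM in mdka-KO libraries, against 96.8, 72.4 and 81.2 CPM in mdka+/+ libraries (log2 fold change 0.83 ± 0.13, adjusted p = 0.128 in edgeR). The second leiomodin-1 gene, lmod1a, was higher at a low level, with 3.04, 2.41 and 1.84 CPM in mdka-KO and 0.651, 0.259 and 0.843 CPM in mdka+/+ libraries (2.05 ± 0.44, adjusted p = 0.187). The essential myosin light chain gene myl6 (0.82 ± 0.18, adjusted p = 0.191) and the LIM protein gene csrp1a (0.62 ± 0.13, adjusted p = 0.189) were higher with groups that did not overlap. Smaller increases were found for cnn2 (0.46 ± 0.15) and the tropomyosin gene tpm3 (0.40 ± 0.15). At a low level smtna was higher, with 1.21, 0.882 and 0.697 CPM in mdka-KO and 0.418, 0.518 and 0.527 CPM in mdka+/+ libraries (0.93 ± 0.38). The calls of cald1a, lmod1a, myl6 and csrp1a held with each of the 6 libraries left out in turn. In these fits cnn2 lost its call in 2, tpm3 in 4 and smtna in 5. The smtna call was also lost in DESeq2, without a filter on low counts and with the replicate block.

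The smooth muscle myosin gene that the annotation names MYH11 (ENSDARG00000009782) had 182, 154 and 110 CPM in mdka-KO libraries, against 123, 82.8 and 65 CPM in mdka+/+ libraries. The groups overlapped, since mdka-KO replicate 4 was below mdka+/+ replicate 1. Its log2 fold change was 0.72 ± 0.27 (adjusted p = 0.345 in edgeR, 0.0286 before adjustment), and the call was lost in 4 of the 6 fits that left out a library. A further gene of this name, ENSDARG00000100972, stayed at or below 0.325 CPM in all libraries and was not tested.

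Other defining markers of contractile smooth muscle did not pass the test. Of the transgelin genes, ENSDARG00000033466 had 179, 160 and 238 CPM in mdka-KO and 162, 158 and 115 CPM in mdka+/+ libraries (log2 fold change 0.41 ± 0.19), and ENSDARG00000045408 had 441, 343 and 449 CPM in mdka-KO and 317, 491 and 533 CPM in mdka+/+ libraries (−0.12 ± 0.21). The calponin gene CNN1 (ENSDARG00000102398) had 65.8, 39.6 and 30.7 CPM in mdka-KO and 24.2, 63.6 and 64.6 CPM in mdka+/+ libraries (−0.16 ± 0.40). Its paralog ENSDARG00000017193 was at 0 in all 6 libraries. The regulatory light chains are the substrate of the kinases. Of these, myl9b was lower, with 835, 774 and 750 CPM in mdka-KO, against 1167, 1024 and 990 CPM in mdka+/+ libraries (−0.43 ± 0.12, adjusted p = 0.231 in edgeR), and lost its call with the replicate block. MYL9 (ENSDARG00000038123) was at −0.32 ± 0.11 (adjusted p = 0.333) and lost its call in 4 of the 6 fits that left out a library. The non-muscle light chain gene myl12.1 was at 0.01 ± 0.11.

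The count of 8 contractile genes changed with the libraries used. It was 5 without mdka-KO replicate 2, 5 without mdka+/+ replicate 2, 4 without mdka+/+ replicate 4 and 4 without both libraries numbered 2. Over all genes tested, higher genes numbered 742, 1042, 1392 and 796 in these fits, in that order, against 1009 with all libraries. The contractile count was 7 without mdka-KO replicate 3, 7 without mdka-KO replicate 4 and 9 without mdka+/+ replicate 1. Higher genes over all genes numbered 759, 656 and 1202 in these fits, in that order. The counts of 2 lower genes became 1 without mdka-KO replicate 2, without mdka-KO replicate 4 and without mdka+/+ replicate 4. Lower genes over all genes numbered 940, 676 and 1380 in these fits, against 1148 with all libraries. They numbered 814 without mdka-KO replicate 3, 1223 without mdka+/+ replicate 1, 1124 without mdka+/+ replicate 2 and 741 without both libraries numbered 2. The refit counts of the other lists below are to be read beside these counts over all genes.

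**Figure D3:**
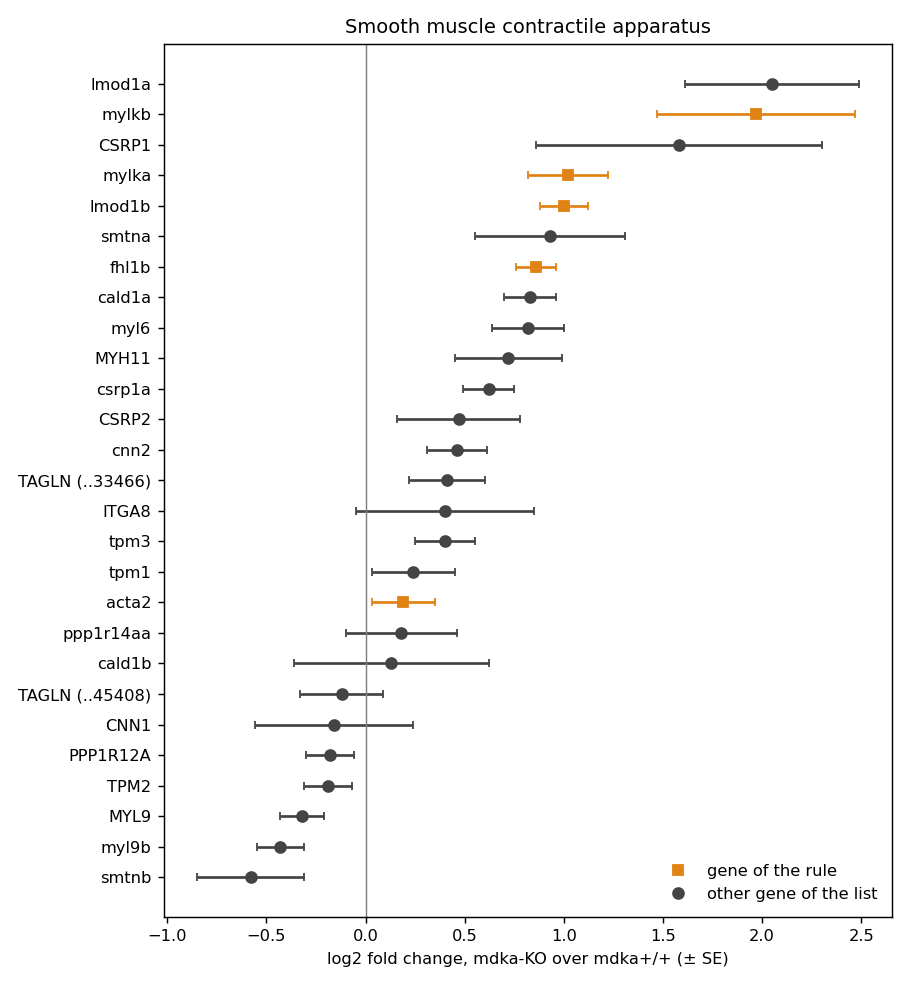
Log2 fold change (mdka-KO over mdka+/+, x axis, ± SE) of the contractile genes that passed the filter on low counts, with the chosen genes as orange squares and the other 22 as grey circles. Values run from 2.05 for lmod1a to −0.58 for smtnb, with acta2 at 0.19 and the regulatory light chains myl9b and MYL9 below 0.

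Paralogs of the chosen genes were then set beside them. The kinase, leiomodin and actin families hold members typical of smooth muscle and members typical of striated muscle. No such division is made here for the FHL family. In the kinase family, mylk2 and mylk3, the kinases of skeletal and cardiac muscle in mammals, were lower in mdka-KO hearts. The mylk3 gene had 185, 163 and 179 CPM in mdka-KO libraries, against 296, 284 and 228 CPM in mdka+/+ libraries (log2 fold change −0.61 ± 0.13, adjusted p = 0.190 in edgeR). For mylk2 the values were 210, 194 and 169 CPM in mdka-KO and 287, 288 and 280 CPM in mdka+/+ libraries (−0.57 ± 0.12, adjusted p = 0.168). Both MYLK4 genes (ENSDARG00000055412 at −0.47 ± 0.28, ENSDARG00000091260 at −0.26 ± 0.44) and mylk5 (−0.90 ± 0.44) did not pass the test. None of the 5 further kinase genes was higher in edgeR, DESeq2 or limma-voom at an unadjusted p under 0.05. The 2 lower ones in edgeR made up 40% of the 5, against 6.42% of all genes. The 2 lower kinase genes became 4 without mdka+/+ replicate 1. There were 49.4, 45.7 and 32.3 counts of mylka per 100 counts of mylk3 in mdka-KO libraries, against 14.8, 10.9 and 15.7 in mdka+/+ libraries.

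Leiomodins and tropomodulins bind actin filaments, tropomodulins at their pointed ends. Of 7 further genes tested, lmod1a was higher, and the striated muscle members lmod2a (log2 fold change −0.99 ± 0.28, adjusted p = 0.238 in edgeR), lmod2b (−0.67 ± 0.17, adjusted p = 0.216) and tmod1 (−0.64 ± 0.13, adjusted p = 0.181) were lower. The lmod2b levels were 308, 285 and 223 CPM in mdka-KO libraries, against 405, 519 and 376 CPM in mdka+/+ libraries. The higher and lower genes were 14.3% and 42.9% of the 7, against 5.64% and 6.42% of all genes. Values that did not pass were −0.56 ± 0.29 for lmod3, −0.20 ± 0.25 for TMOD3 and 0.66 ± 0.31 for TMOD4. The count of higher genes was 2 without mdka-KO replicate 3 and 2 without mdka+/+ replicate 4. Per 100 counts of lmod2b there were 7.05, 6.96 and 9.17 counts of lmod1b in mdka-KO libraries and 2.42, 2.05 and 2.79 in mdka+/+ libraries.

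Of 6 further genes of the FHL family, fhl3a was higher in mdka-KO hearts (16.7%, against 5.64% of all genes) and the others did not pass. The fhl3a gene had 111, 105 and 112 CPM in mdka-KO libraries, against 61.7, 48.3 and 40.9 CPM in mdka+/+ libraries (log2 fold change 1.12 ± 0.16, unadjusted p = 0.000125, adjusted p = 0.0944 in edgeR and 2.8e-06 in DESeq2). The second FHL1 gene (ENSDARG00000071498) had 890, 757 and 738 CPM in mdka-KO and 727, 919 and 823 CPM in mdka+/+ libraries, a log2 fold change of −0.05 ± 0.14. There were 9.04, 10.7 and 10.3 counts of fhl1b per 100 counts of this gene in mdka-KO and 6.07, 4.47 and 5.48 in mdka+/+ libraries. The FHL2 genes were at −1.32 ± 0.57 (ENSDARG00000003991) and 0.10 ± 0.23 (ENSDARG00000042018), FHL3 at 0.10 ± 0.17 and FHL5 at −0.73 ± 0.96.

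Among 7 further actin genes, the cytoplasmic actin gene actb1 was higher (log2 fold change 0.51 ± 0.15, adjusted p = 0.257 in edgeR) and the cardiac actin gene actc1a was lower (−0.38 ± 0.12, adjusted p = 0.290). Values that did not pass were 0.11 ± 0.12 for actb2, 1.2 ± 0.92 for actc1b, −0.68 ± 0.39 for actc1c, 0.37 ± 0.30 for ACTA1 (ENSDARG00000036371) and −0.22 ± 0.17 for its second gene (ENSDARG00000055618). Higher and lower genes were each 14.3% of the 7, against 5.64% and 6.42% of all genes. There were 3 higher actin genes without mdka+/+ replicate 2, 0 lower ones without mdka-KO replicate 3 and 3 lower ones without mdka+/+ replicate 4. The counts of acta2 per 100 counts of actc1a were 2.12, 1.93 and 1.83 in mdka-KO and 1.13, 1.52 and 1.34 in mdka+/+ libraries. These did not overlap, but actc1a was itself lower in every mdka-KO library than in every mdka+/+ library. Nothing about acta2 is therefore read from this ratio. None of the 8 actin genes had whole counts in all libraries. Relative to acta2 itself, lmod1b stood at 8.19 ± 1.13 counts per 100 in mdka-KO and at 4.62 ± 0.394 in mdka+/+ (SD, n = 3 each), and mylka stood at 28.9 ± 2.03 in mdka-KO and 16.8 ± 5.13 in mdka+/+.

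Several of the lower paralogs are genes of heart muscle. Of 12 cardiomyocyte markers 9 were lower in mdka-KO hearts as well (75%, against 6.42% of all genes). The median log2 fold change of the 12 was −0.42. Their summed level was 59093 to 73095 CPM in mdka-KO and 90104 to 95004 CPM in mdka+/+ libraries. Examples were myh7l (−0.55 ± 0.15, adjusted p = 0.230 in edgeR) and tnni1b (−0.53 ± 0.12, adjusted p = 0.192). The count was 5 without mdka-KO replicate 4 and 2 with library size only in place of TMM. Over all genes 676 and 501 were lower in these fits, against 1148 in the main fit. The part of the cardiomyocyte level in the paralog ratios was not tested.

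**Figure D4:**
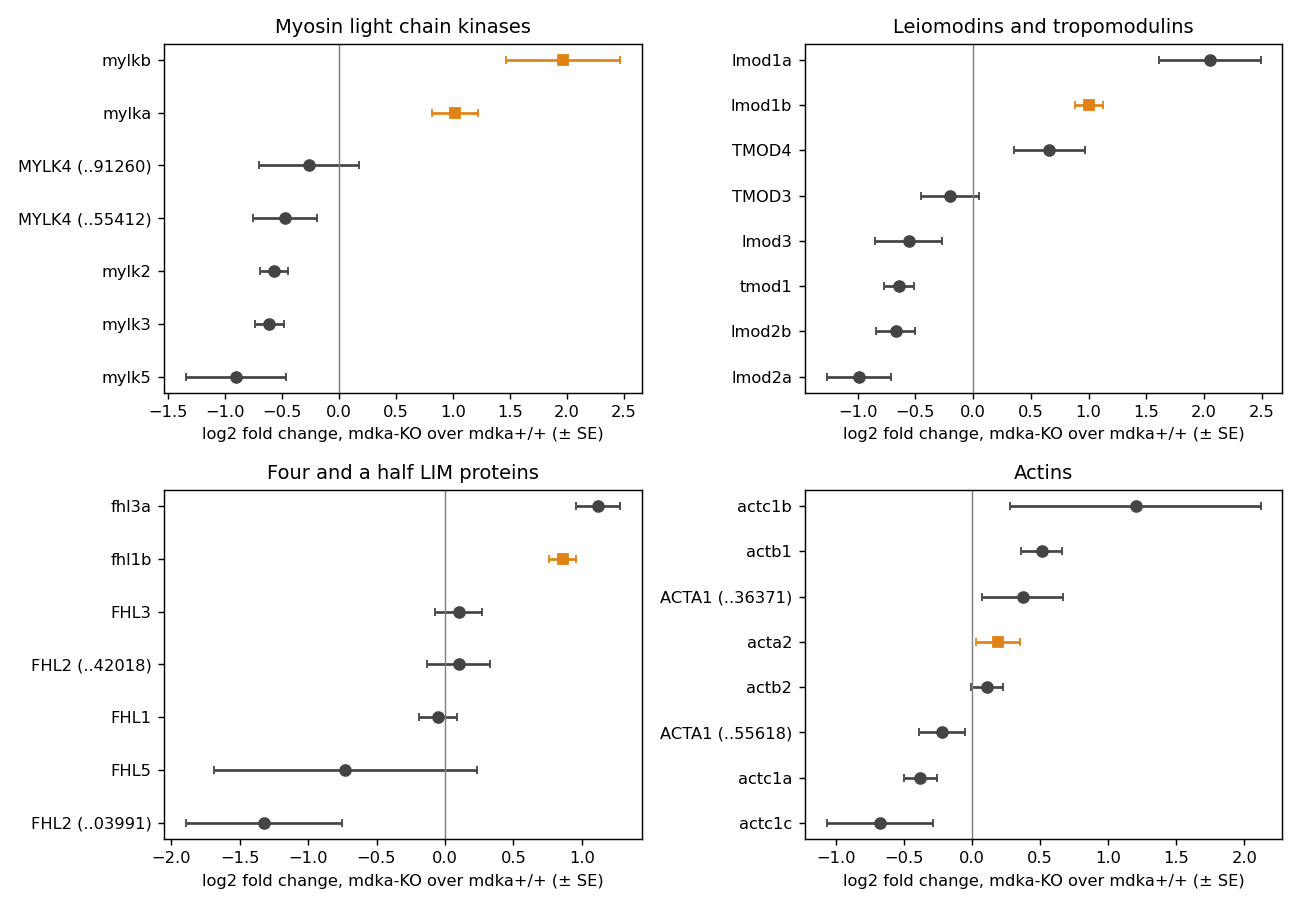
Log2 fold changes (mdka-KO over mdka+/+, x axes, ± SE) within 4 gene families, with the chosen genes as orange squares and their paralogs as grey circles. In the kinase panel mylkb (1.97) and mylka (1.02) lie right of 0 and mylk2 (−0.57) and mylk3 (−0.61) left of it, and in the leiomodin panel lmod1a (2.05) and lmod1b (1.0) lie right and lmod2a (−0.99), lmod2b (−0.67) and tmod1 (−0.64) left.

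**Figure D5:**
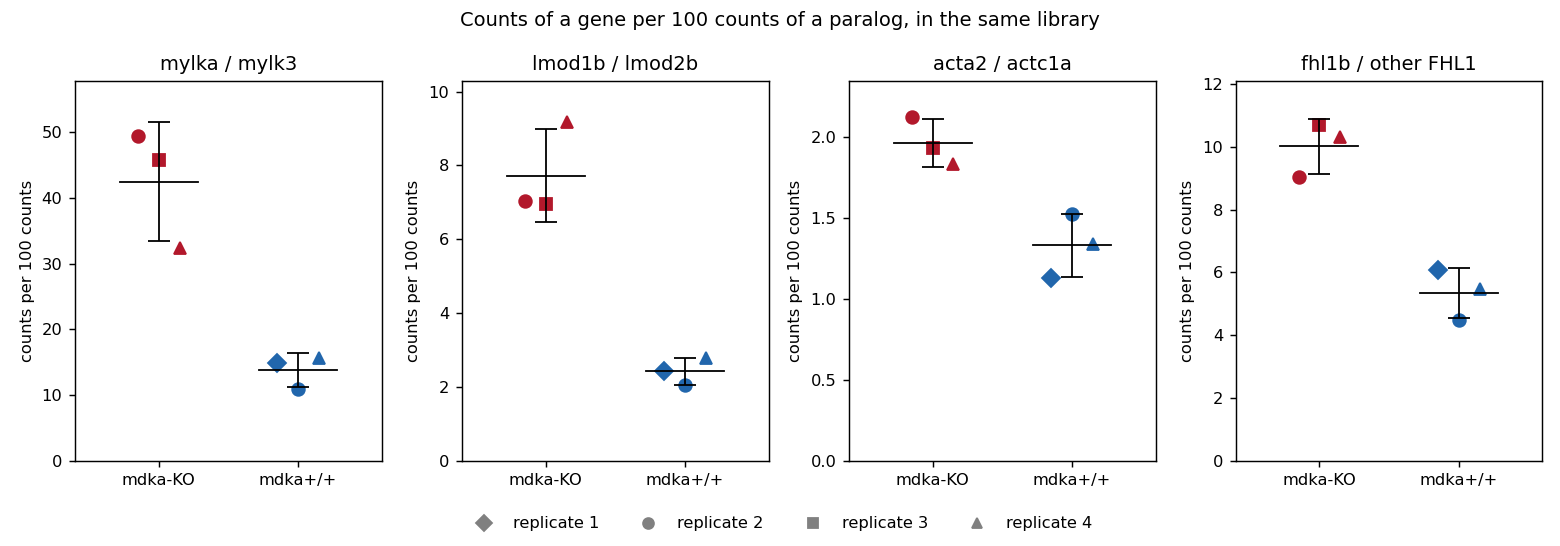
Counts of a chosen gene per 100 counts of a paralog in the same library (y axes from 0), for the 3 mdka-KO (red) and 3 mdka+/+ (blue) libraries, with the mean and SD. The genotypes are apart in all 4 panels, and the mean for mylka over mylk3 is 42.4 in mdka-KO and 13.8 in mdka+/+. Nothing is read from the separation, because the chosen genes were picked on this contrast and mylk3, lmod2b and actc1a were themselves lower in mdka-KO.

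For hsp90aa1.1 the related genes were the other Hsp90 chaperones and the co-chaperones of myosin folding. Of 22 further genes tested, 2 (9.09%, against 6.42% of all genes) were lower by the unadjusted threshold, unc45b (log2 fold change −0.73 ± 0.18, adjusted p = 0.213 in edgeR), the myosin co-chaperone that works with Hsp90 in muscle, and the heat shock factor gene hsf1 (−0.51 ± 0.18, adjusted p = 0.329). The count was 1 without mdka-KO replicate 4 or mdka+/+ replicate 2 and 4 without mdka+/+ replicate 1 or replicate 4, and hsf1 lost its call in 4 of the 6 fits that left out a library. The constitutive HSP90AB1 stood at 2546, 2767 and 2631 CPM in mdka-KO and 2772, 2966 and 2560 CPM in mdka+/+ libraries (−0.06 ± 0.11), and the endoplasmic HSP90B1 at 0.06 ± 0.27. The stress-induced hsp70.3 had 31.6, 12.9 and 11.4 CPM in mdka-KO and 8.27, 42.3 and 36.7 CPM in mdka+/+ libraries. Within each genotype its order of libraries was that of hsp90aa1.1. The log2 fold change of hsp70.3 was −0.64 ± 0.60. There were 8.14 ± 2.91 counts of hsp90aa1.1 per 100 counts of HSP90AB1 in mdka-KO and 13.6 ± 3.9 in mdka+/+ libraries, and these overlapped.

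Contractile genes of smooth muscle and myofibroblasts are switched on by serum response factor with its MRTF coactivators, and YAP shares many of their targets. Of 18 genes of this pathway tested, 4 targets were higher in mdka-KO hearts (22.2%) and 0 were lower in edgeR at an unadjusted p under 0.05. Over all genes tested 5.64% were higher and 6.42% lower. DESeq2 and limma-voom gave 0 lower genes of the pathway as well, while 1 was lower without mdka+/+ replicate 1. The matricellular thrombospondin gene thbs1b had 726, 468 and 512 CPM in mdka-KO libraries, against 180, 226 and 189 CPM in mdka+/+ libraries (log2 fold change 1.52 ± 0.19, adjusted p = 0.0771). The connective tissue growth factor genes ccn2a (1.22 ± 0.25, adjusted p = 0.169) and ccn2b (1.22 ± 0.17, adjusted p = 0.0944) were higher without overlap of the groups. The second thrombospondin gene, THBS1, was higher by 0.85 ± 0.35 and lost its call in 2 of the 6 fits that left out a library. Other targets did not pass, with CCN1 at −0.02 ± 0.33, ANKRD1 (ENSDARG00000075263) at 0.24 ± 0.63 and VGLL3 at 0.58 ± 0.33. The regulators did not pass, with SRF at 0.06 ± 0.23 (ENSDARG00000053918) and −0.10 ± 0.17 (ENSDARG00000102867), mrtfab at 0.14 ± 0.15, MRTFB at 0.18 ± 0.36, mrtfbb at −0.12 ± 0.10 and YAP1 at 0.01 ± 0.12.

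In non-muscle actomyosin and focal adhesions, where contractile force is passed to the matrix, 4 of 25 genes were higher (16%) and 1 was lower (4%), against 5.64% and 6.42% of all genes. Without mdka+/+ replicate 1 the counts were 7 and 3. The α-actinin gene actn1 had 208, 223 and 246 CPM in mdka-KO libraries, against 154, 130 and 110 CPM in mdka+/+ libraries (log2 fold change 0.78 ± 0.15, adjusted p = 0.162 in edgeR). The tropomyosin gene tpm4b (0.67 ± 0.15, adjusted p = 0.197) and the filamin gene flna (0.62 ± 0.15, adjusted p = 0.213) were higher, TLN1 by 0.27 ± 0.11, and 1 vinculin gene, VCL (ENSDARG00000044968), was lower at −0.34 ± 0.13. With 1 library left out, TLN1 lost its call in 5 and VCL in 3 of 6 fits. Non-muscle myosin heavy chains did not pass, at 0.47 ± 0.22 and −0.01 ± 0.37 for the MYH9 genes and −0.24 ± 0.15 for MYH10.

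Markers of the cells that could carry contractile transcripts differed in direction. Of 23 further activated fibroblast and scar genes, 8 were higher (34.8%, against 5.64% of all genes) and 15 did not pass. The median log2 fold change of the 23 was 0.29. The periostin gene postna had 406, 358 and 283 CPM in mdka-KO libraries, against 183, 164 and 195 CPM in mdka+/+ libraries (0.95 ± 0.16, adjusted p = 0.128 in edgeR). The other 7 were cthrc1a (0.77), col1a1a (0.62), col5a1 (0.62), ddr2a (0.59), LOX (0.55), col1a1b (0.54) and col1a2 (0.51). The groups of LOX overlapped, and its call was lost in 4 of the 6 fits that left out a library and with the replicate block. The col1a2 call was lost in 1 of these 6 fits and with the replicate block. The fibroblast marker fap was at −0.50 ± 0.32 and the second periostin gene, POSTN, at 0.56 ± 0.29.

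Of 16 markers of pericytes and coronary smooth muscle, the potassium channel subunit gene kcne4 was higher (log2 fold change 1.26 ± 0.26, adjusted p = 0.180 in edgeR), and ABCC9 (−0.71 ± 0.26), kcnj8 (−1.18 ± 0.31), mcamb (−0.42 ± 0.11) and epas1a (−0.61 ± 0.16) were lower (6.25% and 25% of the list). Over all genes tested the shares were 5.64% higher and 6.42% lower. Without mdka+/+ replicate 1 there were 2 higher genes in the list. The defining pericyte markers did not pass, with PDGFRB at 54, 73.4 and 74.7 CPM in mdka-KO and 79.3, 72.5 and 72.6 CPM in mdka+/+ libraries, NOTCH3 at −0.02 ± 0.11, RGS5 at −0.41 ± 0.18 and CSPG4 at 0.14 ± 0.27. The summed level of the 16 genes was 821 to 992 CPM in mdka-KO and 1056 to 1082 CPM in mdka+/+ libraries. The largest part of this sum was mcamb alone, at 475, 423 and 408 CPM in mdka-KO and 554, 586 and 608 CPM in mdka+/+ libraries. The sum therefore mostly follows this gene and is not a level of the whole list.

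Of 8 further markers of the smooth muscle of the outflow tract (bulbus arteriosus) tested, 4 were higher, MYH11 among them. These were 50% of the list, against 5.64% of all genes. The elastin gene elnb had 127, 179 and 90.7 CPM in mdka-KO libraries, against 45.8, 42 and 67.3 CPM in mdka+/+ libraries (log2 fold change 1.36 ± 0.28, adjusted p = 0.170 in edgeR), and the groups were apart. The elastic fibre genes fbln5 (0.80 ± 0.22, adjusted p = 0.236) and fbn2b (0.49 ± 0.15, adjusted p = 0.260) were higher too. The other 4 did not pass. The EFEMP2 genes were at 0.30 ± 0.13 (ENSDARG00000020811) and −0.23 ± 0.21 (ENSDARG00000094324), TBX20 at −0.08 ± 0.24 and emilin1a at −0.36 ± 0.16. The summed level of 9 outflow tract genes was 529 to 650 CPM in mdka-KO and 433 to 485 CPM in mdka+/+ libraries, and none of them was at 0 in all libraries. Without mdka-KO replicate 3 the count of higher genes was 2, as it was without both libraries numbered 2. The elastin paralog elna was not analysed here, and the part of outflow tract tissue in the levels of the 6 genes was not tested.

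Epicardial markers gave 0 of 9 genes at an unadjusted p under 0.05 in edgeR, DESeq2 or limma-voom, with a median log2 fold change of −0.01 and ALDH1A2 at 0.23 ± 0.29. The count was 2 without mdka-KO replicate 4 and 1 without mdka+/+ replicate 1. Erythroid genes were higher in 4 of 5 cases (80%, alas2 at 0.99 ± 0.27). Of 6 leukocyte genes mpeg1.1 (0.84 ± 0.22), csf1ra (0.71 ± 0.14) and ptprc (0.41 ± 0.17) were higher (50%) and lyz (−2.37 ± 0.66) was lower (16.7%). The ptprc call was lost in 4 of the 6 fits that left out a library. The lyz gene had 4.13, 5.11 and 2.44 CPM in mdka-KO and 42.9, 9.49 and 8.22 CPM in mdka+/+ libraries. With 1 library left out its log2 fold change ranged from −2.75 to −1.18. Over all genes tested 5.64% were higher and 6.42% lower. Without mdka+/+ replicate 1, 5 leukocyte genes were higher. The share of the 6 genes' levels that comes from any of these cells was not tested.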

How the data were processed

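RNA-seq was analysed for 6 libraries, each from 1 pool of ventricular apexes at 7 dpci, grouped by the genotype in their labels. The authors made directional libraries, sequenced single reads and estimated expression against GRCz11 with RSEM. The submitters' processing notes name bcl2fastq 2.20.0.422, cutadapt and RSEM, and the aligner is not given in the sources used here. The deposited values are RSEM expected counts, neither normalized nor filtered, and 18.7% to 20.4% of the values of a library were not whole numbers. They were rounded and tested with edgeR 4.0.16 (R 4.3.3): filterByExpr (minimum count 10, minimum total count 15), TMM, two-sided quasi-likelihood test of mdka-KO against mdka+/+ without covariates, Benjamini-Hochberg adjustment over 17879 genes. CPM are TMM-scaled; correlations used log2 CPM with a prior count of 1. The study names no test for its gene calls. The common dispersion, 1 estimate over all genes of the spread between the 3 pools of a genotype, was 0.0555. The test sets the genotype difference of a gene against a spread estimated for that gene with information shared across genes. For abundant genes this spread limits precision more than counting does.

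The 6 genes and all gene lists were chosen with earlier results of these data known. Named are all 6 genes, their paralogs, and from each other list up to 8 genes with the smallest unadjusted p under 0.05 together with its defining markers, and for each of the 6 the 3 most correlated genes. Zebrafish symbols and coordinates (1179 genes) came from the supplementary gene table, whose columns of fold changes and p-values were not used. That table holds the genes the study called at an unadjusted p under 0.05 in this contrast. List symbols were sought there first, so a symbol found only there entered a list because the study had called the gene. Symbols found in neither source were left out. The shares of called genes in the lists can therefore lean toward called genes, by an amount that was not tested. Symbols of that gene table matched all called contractile genes but MYH11, smtna, tpm3 and MYL9. They also matched all called fibroblast and scar genes but LOX, outflow tract genes but MYH11 and cardiomyocyte genes but MYL7. Other names came from a name table (29201 of 32520 identifiers), where capitals mark the name of the human ortholog. Paralogs of 1 name are told apart by identifier. The scripts were tested on simulated counts. Alternatives used DESeq2 1.42.0, limma 3.58.1 (voom), other scaling and filters, a replicate block, and each library left out. Protein and promoter sequences and gene lengths were not used here, so levels were not compared between genes except as ratios within a library. Tables were joined in Python 3.11.15 with pandas 2.3.3, numpy 2.4.6 and scipy 1.17.1.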

Additional observations from a re-analysis of the deposited data

How the results depend on the processing

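The log2 fold changes of the 6 genes kept their sign under every alternative run. With 1 library left out they ranged from 0.05 to 0.29 for acta2, −1.12 to −0.54 for hsp90aa1.1, 0.96 to 1.03 for lmod1b, 0.82 to 0.89 for fhl1b, 0.84 to 1.17 for mylka and 1.62 to 2.29 for mylkb. Scaling by library size only shifted the median of all genes to 0.13 and moved lmod1b to 1.14 and fhl1b to 1.0. It called 2081 genes higher and 501 lower, against 1009 and 1148 with TMM. The count at an unadjusted p under 0.05 (2157) ranged from 1332 to 2772 with 1 library left out. The count at an adjusted p under 0.05 was 1 (0.00559% of genes), and it was 19 with library size only, 414 with DESeq2, 2 with limma-voom, 19 without a filter on low counts, 0 to 3 with 1 library left out and 0 without both libraries numbered 2. The 8 higher contractile genes ranged from 4 to 9 with 1 library left out and were 4 without both libraries numbered 2, and the 2 lower ones ranged from 1 to 3 and were 1 with library size only. Among single genes, SMYD1 (ENSDARG00000091253) was 0.11 with all libraries and ranged from −0.51 to 0.35 with 1 library left out. The −0.51 came without mdka-KO replicate 3. SMYD1 had 17.5, 43.9 and 16.2 CPM in mdka-KO and 28.4, 20.6 and 22.7 CPM in mdka+/+ libraries. Why replicate 3 was higher was not tested.

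The numbers 2 and 4 are shared by libraries of both genotypes, and no source says that equal numbers were processed together. Deviations of the same-numbered libraries correlated at 0.09 and 0.01 over 17879 genes. With the replicate number as a block the log2 fold changes were 0.10 for acta2, −0.93 for hsp90aa1.1, 1.0 for lmod1b, 0.86 for fhl1b, 1.13 for mylka and 2.16 for mylkb, with 1976 genes at an unadjusted p under 0.05, 4 at an adjusted p under 0.05, 10 contractile genes higher and 1 lower. Numbers 1 and 3 occur in 1 genotype only, so the genotype difference in this fit rests on the libraries numbered 2 and 4 alone. Its values and calls are therefore not an adjustment that uses all 6 libraries. In this fit MYH9 (ENSDARG00000063295) was 0.69, against −0.01 without the block, and FOXC1 (ENSDARG00000091481) was 0.41, against −0.04.

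Depth limits mylkb most, with 12 to 212 counts per library. Counts that are not whole make the levels of acta2, hsp90aa1.1 and the other actins estimates.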
